A study of Homo sapiens with 3 samples.

Results

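Semaphorins, their neuropilin and plexin receptors and the netrin receptor DCC were followed in the myeloma cell line KMS11 after hairpins against MMSET, a histone methyltransferase gene (current symbol NSD2). The 10 genes, out of 19775 with named probe sets, were SEMA3A, SEMA3C, SEMA4A, SEMA4D, SEMA7A, NRP1, NRP2, PLXNA1, PLXNB2 and DCC. They were chosen from the guidance families with their ratios on these arrays known, so their counts describe them and support nothing further. Their 34 probe sets, short groups of probes that each report on 1 transcript region, were taken by gene symbol, and 16 of them were bright enough to be tested. KMS11 is an established human line with the t(4;14) translocation, which brings MMSET under immunoglobulin enhancers. Lentiviruses, added with polybrene, delivered either shLuc, a control hairpin against luciferase, or 1 of the hairpins shMMSET#2 and shMMSET#4, and RNA was taken at 48 h. Each of these 3 groups had 1 array, all of this 1 line, so there is no replicate spread and no p-value, and "lower" or "higher" compares single arrays. In such bulk RNA, fewer cells that make a transcript and less of it per cell cannot be told apart.

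Semaphorins are guidance ligands that steer growing axons, vessels and migrating leukocytes. The secreted class 3 members, such as SEMA3A and SEMA3C, bind a neuropilin, which lacks a signalling domain of its own and passes the signal through a plexin A partner. Class 4 members and the lipid-anchored SEMA7A sit on the cell surface and bind plexins directly. DCC, the receptor for netrin-1, guides axons towards netrin and is also known as a dependence receptor, which promotes cell death when its ligand is missing. In the B lineage, SEMA4D (CD100) is a lymphocyte surface protein, and neuropilins are also receptors for the angiogenic factor VEGF.

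The largest ratios among the 10 genes were those of SEMA3C and DCC, both lower, while SEMA7A was higher with both hairpins, and the bases that precede their annotated starts are shown here so that the 3 genes can be compared. Each stretch holds 250 bases before a start, from the RefSeq promoter table of GRCh38.p14, in which 8 of the 10 genes were matched. SEMA3C has an upstream start and one further downstream, and the more upstream of the SEMA7A starts is shown. Capitals mark 4 short motifs on either strand: the GC box GGGCGG, the MYC E-box CACGTG, the TATA box TATAAA and TGCTGA, the core of the MAF recognition element.
SEMA3C upstream start, chr7:80922390-80922639, minus strand: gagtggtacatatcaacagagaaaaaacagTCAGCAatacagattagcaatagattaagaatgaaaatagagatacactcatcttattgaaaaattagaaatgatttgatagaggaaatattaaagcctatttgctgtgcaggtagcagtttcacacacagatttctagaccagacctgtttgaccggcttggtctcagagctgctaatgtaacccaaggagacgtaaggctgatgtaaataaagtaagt
SEMA3C downstream start, chr7:80919052-80919301, minus strand: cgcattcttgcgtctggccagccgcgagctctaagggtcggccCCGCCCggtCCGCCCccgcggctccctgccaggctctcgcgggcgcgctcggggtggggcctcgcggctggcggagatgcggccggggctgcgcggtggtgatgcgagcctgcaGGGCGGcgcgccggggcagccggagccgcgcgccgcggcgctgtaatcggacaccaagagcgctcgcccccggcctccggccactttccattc
DCC, chr18:52339947-52340196, plus strand: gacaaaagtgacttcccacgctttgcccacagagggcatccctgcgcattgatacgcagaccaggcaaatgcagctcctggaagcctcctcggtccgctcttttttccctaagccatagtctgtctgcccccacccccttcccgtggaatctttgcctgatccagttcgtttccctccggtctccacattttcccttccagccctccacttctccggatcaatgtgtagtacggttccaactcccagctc
SEMA7A, chr15:74433959-74434208, minus strand: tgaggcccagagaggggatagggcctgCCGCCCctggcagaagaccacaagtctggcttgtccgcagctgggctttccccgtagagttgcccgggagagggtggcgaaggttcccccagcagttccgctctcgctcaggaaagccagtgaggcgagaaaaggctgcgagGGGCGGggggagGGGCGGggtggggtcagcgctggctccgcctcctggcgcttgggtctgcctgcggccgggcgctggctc

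The windows differed between the starts of 1 gene as well as between genes. The upstream SEMA3C window was AT-rich, with 36.4% G or C and 2 CpG dinucleotides, and held 1 TGCTGA match. The downstream SEMA3C window had 77.6% G or C, 39 CpG and 3 GC boxes. The DCC window had 56.0% G or C, 10 CpG and none of the 4 motifs, and the SEMA7A window had 70.0% G or C, 17 CpG and 3 GC boxes. The downstream SEMA7A window, not printed, had 77.6% G or C, 38 CpG and 4 GC boxes, close to the downstream SEMA3C window. Whether the content of a window goes with the direction of its gene was not tested. Over all 35116 windows of this length the medians were 58.0% and 11 CpG, and 42.6% held a GC box, 14% TGCTGA, 10.7% a TATA box and 6.34% an E-box. A match describes letters in the window, not a bound site.

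The arrays carried values that touch every ratio here. The signals are MAS5 signals, linear brightness values whose trimmed mean was 500.1 on each array, and signals under 41.2 were set to that floor before log2 ratios were taken. The median signal of all probe sets was 77.4 in shLuc cells, 62.0 under shMMSET#2 and 59.5 under shMMSET#4, and with all arrays at the same median the typical tested probe set went from a log2 ratio of -0.05 to 0.24 for shMMSET#2, and for shMMSET#4 from -0.06 to 0.29. The log2 excess of the 3' over the 5' ACTB control probe set was 1.70 with shLuc and 1.14 on each hairpin array. The part of these differences in the results was not tested. For the targeted gene NSD2, 6 of 6 probe sets had log2 ratios below 0 with shMMSET#2 (-2.69 to -0.54), and 5 of 6 did so with shMMSET#4 (-1.62 to 0.05). The 9 plasma cell markers were above the floor on every array, and their signals summed to 113375 in shLuc cells, 71755 under shMMSET#2 and 100625 under shMMSET#4. Lower with shMMSET#2 were SLAMF7 (5.85-fold), IRF4 (2.86-fold) and PRDM1 (2.29-fold), and MZB1 was 3.53-fold higher with shMMSET#4. Of the endothelial markers VWF and CDH5, neither was above the floor on any array. With shLuc, shMMSET#2 and shMMSET#4, markers above the floor numbered 3, 2 and 1 of 3 for fibroblasts, 2, 1 and 0 of 3 for myeloid cells, and 2, 1 and 1 for both B cells and T cells. The 3 epithelial markers were above it on every array and summed to 8793, 4559 and 11134, mostly from EPCAM. Their part in the results was not tested. Among the neuronal markers TUBB3 was bright on every array (4743, 6760 and 8742), whereas SNAP25 was at 45.4 with shLuc, under the floor with shMMSET#2 and at 272 with shMMSET#4. NEFL, too dim to be tested, was at 56.5 with shLuc, at 57.0 with shMMSET#2 and under the floor with shMMSET#4. As a measure of noise between arrays, the median tested probe set differed by 1.29-fold between the hairpin arrays. Of all tested probe sets, 95% differed by less than 2.37-fold, a range that also holds whatever the hairpins do differently. The shLuc array is not part of this range, so the range does not measure the spread of ratios to shLuc.

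Both secreted semaphorins among the 10 genes had their highest signal with shLuc on every probe set. The other tested class 3 genes, SEMA3F and SEMA3G, had their lowest with shLuc on their brightest probe sets. SEMA3F 35666_at read 134 in shLuc cells, 232 under shMMSET#2 and 234 under shMMSET#4. SEMA3G read 30.1, under the floor, then 42.2 and 94.5. An untested SEMA3F probe set, 209730_at, was highest with shLuc, at 66.8. These genes were named here after their values were seen. SEMA3C acts through neuropilins and is known for its part in heart and vessel development. On its brighter probe set (203789_s_at), which the annotation ties to the RefSeq transcript, the signal was 1039 in shLuc cells, 89.8 under shMMSET#2 and 109 under shMMSET#4. The hairpin arrays were close together and both far below shLuc, by 11.6-fold and 9.52-fold. The dimmer SEMA3C probe set (203788_s_at) read 245 in shLuc cells, 73.4 under shMMSET#2 and 45.0 under shMMSET#4, or 3.35-fold and 5.45-fold lower. With the floor at 117.6, the 60th percentile of signals, the log2 ratios of this dimmer probe set shrank from -1.74 and -2.45 to bounds of -1.06 with each hairpin. The signal of 45.0 lies just above the floor used here, and the probe sets differ in which hairpin is lowest. Ranked by the smaller of the shared log2 ratios, SEMA3C was at place 2 from the lowest of 13296 tested genes, which describes how it came to be chosen.

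SEMA3A, the founding axon-repelling semaphorin, had a smaller ratio. Its probe set 206805_at read 414 in shLuc cells, 191 under shMMSET#2 and 196 under shMMSET#4, so that both hairpin arrays stood 2.16-fold and 2.11-fold below the control and 1.02-fold from each other. These folds are smaller than the 2.39-fold within which 95% of probe sets of like signal lay between the hairpin arrays. The dimmer SEMA3A probe sets were at 58.5 and 51.7 with shLuc and under the floor with both hairpins, so their folds are bounds of at least 1.42 and at least 1.25. With equal medians the ratio of 206805_at shrank to -0.79 with shMMSET#2 and -0.70 with shMMSET#4 on the log2 scale, and it no longer reached 2-fold.

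In the RefSeq annotation SEMA3C and SEMA3A lie near each other on chromosome 7, in the order SEMA3C, HGF, CACNA2D1, PCLO, SEMA3E, SEMA3A and SEMA3D among protein-coding genes. The genes between them did not share 1 pattern. HGF, the hepatocyte growth factor, read 8905 in shLuc cells, 522 under shMMSET#2 and 4848 under shMMSET#4 on its brightest probe set, which is 17.0-fold and 1.84-fold lower. All 5 tested HGF probe sets were lower with shMMSET#2, whereas with shMMSET#4 their log2 ratios ran from -0.88 to 0.91. CACNA2D1, a calcium channel subunit gene, was 1.55-fold and 1.74-fold lower on its brightest probe set. The brightest probe sets of PCLO, SEMA3E and SEMA3D were too dim to be tested.

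**Figure D1:**
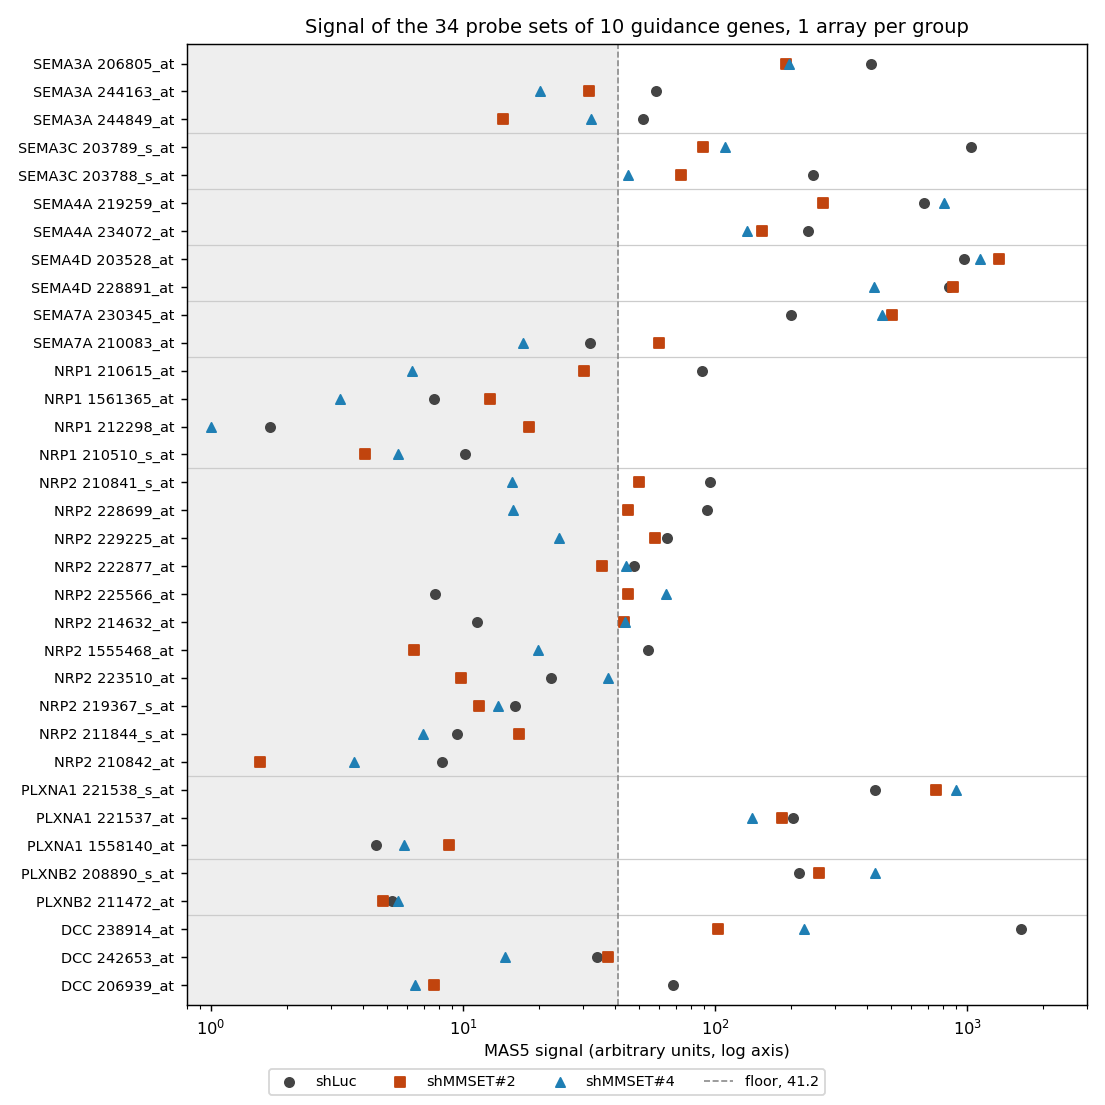
MAS5 signal (arbitrary units, log axis) of the 34 probe sets of the 10 genes on the shLuc (circles), shMMSET#2 (squares) and shMMSET#4 (triangles) arrays, 1 array per group, with the floor of 41.2 dashed and signals below it shaded. The SEMA3C, SEMA3A and brightest DCC circles lie to the right of both hairpin arrays, SEMA7A 230345_at shows the opposite order, and most NRP1 and NRP2 points fall in the shaded range.

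The membrane-bound semaphorins did not share 1 direction. SEMA7A, which binds plexin C1 and integrin beta-1, was higher with both hairpins: 230345_at read 200 in shLuc cells, 503 under shMMSET#2 and 457 under shMMSET#4. The control was lowest and the hairpin arrays lay 1.10-fold apart, at 2.51-fold and 2.28-fold above it. These folds barely pass the 2.25-fold that held 95% of like probe sets between the hairpin arrays, a range that leaves out the shLuc array. The other SEMA7A probe set, 210083_at, was above the floor with shMMSET#2 alone, at 59.6, and was too dim to be tested.

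SEMA4A, a class 4 semaphorin known as a costimulator of T cells, differed between the hairpins. Its probe set 219259_at read 672 in shLuc cells, 268 under shMMSET#2 and 809 under shMMSET#4, so that shMMSET#2 was 2.51-fold below the control and shMMSET#4 was 1.20-fold above it. The hairpin arrays differed by 3.02-fold, and this was the 1 tested probe set of the 10 genes that passed the 95% range of its signal class, 2.24-fold. By definition such a range leaves a fixed share of all tested probe sets outside. With 16 tested, 1 outside is near that share, so nothing is read from this count. The comparison of the hairpin arrays with each other does not use the shLuc array. The dimmer SEMA4A probe set 234072_at was lower with both, at 234, 154 and 134, or 1.52-fold and 1.75-fold, so the probe sets differ on the direction with shMMSET#4.

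SEMA4D, the ligand of plexin B1 and CD72, stayed under 2-fold on both probe sets. It read 968, 1339 and 1128 on 203528_at with shLuc, shMMSET#2 and shMMSET#4, with shLuc the lowest, at 1.38-fold and 1.16-fold. On 228891_at it read 850, 878 and 427, and there shMMSET#4 alone stood apart, 1.99-fold below shLuc and 2.06-fold below shMMSET#2. The 2 probe sets thus agree on shMMSET#2 and differ in direction with shMMSET#4.

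Among the receptors, the neuropilins were dim. NRP1, the main coreceptor of SEMA3A, was above the floor on 1 of 4 probe sets and with shLuc alone: 210615_at read 88.9 in shLuc cells, 30.1 under shMMSET#2 and 6.27 under shMMSET#4. With both hairpins under the floor this is at least 2.16-fold lower with each. NRP2, a receptor of class 3 semaphorins and of VEGF-C, had 11 probe sets, of which 4 were under the floor on all 3 arrays and 3 were tested. Its brightest, 210841_s_at, read 95.7, 49.8 and 15.6 with shLuc, shMMSET#2 and shMMSET#4, which is 1.92-fold and at least 2.32-fold lower. A second, 228699_at, followed the same order at 92.5, 45.0 and 15.8, whereas 225566_at ran the other way, from 7.76 with shLuc to 45.1 and 63.6, higher by at least 1.09-fold and by at least 1.54-fold. The other 4 NRP2 probe sets were above the floor on at least 1 array but untested, with signals no higher than 64.5. The NRP2 probe sets therefore give no common direction. With the floor raised to the 60th percentile of signals (117.6), each tested NRP1 and NRP2 ratio became 0.

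The plexins among the 10 genes were higher on their brightest probe sets. PLXNA1, the signalling partner of neuropilins, read 429 in shLuc cells, 753 under shMMSET#2 and 904 under shMMSET#4 on 221538_s_at, which is 1.75-fold and 2.11-fold higher. A dimmer PLXNA1 probe set, 221537_at, read 203, 184 and 140, with shLuc the highest, 1.10-fold and 1.45-fold above the hairpin arrays. Its log2 ratio with shMMSET#2 was -0.14 and became 0.18 with equal medians and 0.08 with quantile normalization. PLXNB2, a receptor of class 4 semaphorins, read 215, 258 and 433 on 208890_s_at, which is 1.20-fold and 2.01-fold higher. Its other probe set was under the floor on all 3 arrays. The plexin folds do not exceed the 2.24-fold and 2.39-fold that held 95% of like probe sets between the hairpin arrays.

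DCC gave the largest ratio of the 10 genes with shMMSET#2, on 1 probe set, and came after SEMA3C with shMMSET#4. 238914_at read 1634 in shLuc cells, 102 under shMMSET#2 and 224 under shMMSET#4, so that the control stood far above both, by 16.0-fold and 7.28-fold. The hairpin arrays differed by 2.20-fold, inside the 2.24-fold range of like probe sets. The probe set tied to the RefSeq transcript of DCC, 206939_at, was dim: it read 68.0 with shLuc and 7.66 and 6.47 with the hairpins, at least 1.65-fold lower with each. The remaining one, 242653_at, was under the floor on all 3 arrays. With the mean over its 3 probe sets the DCC log2 ratio shrank to -1.57 for shMMSET#2 and to -1.20 for shMMSET#4.

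**Figure D2:**
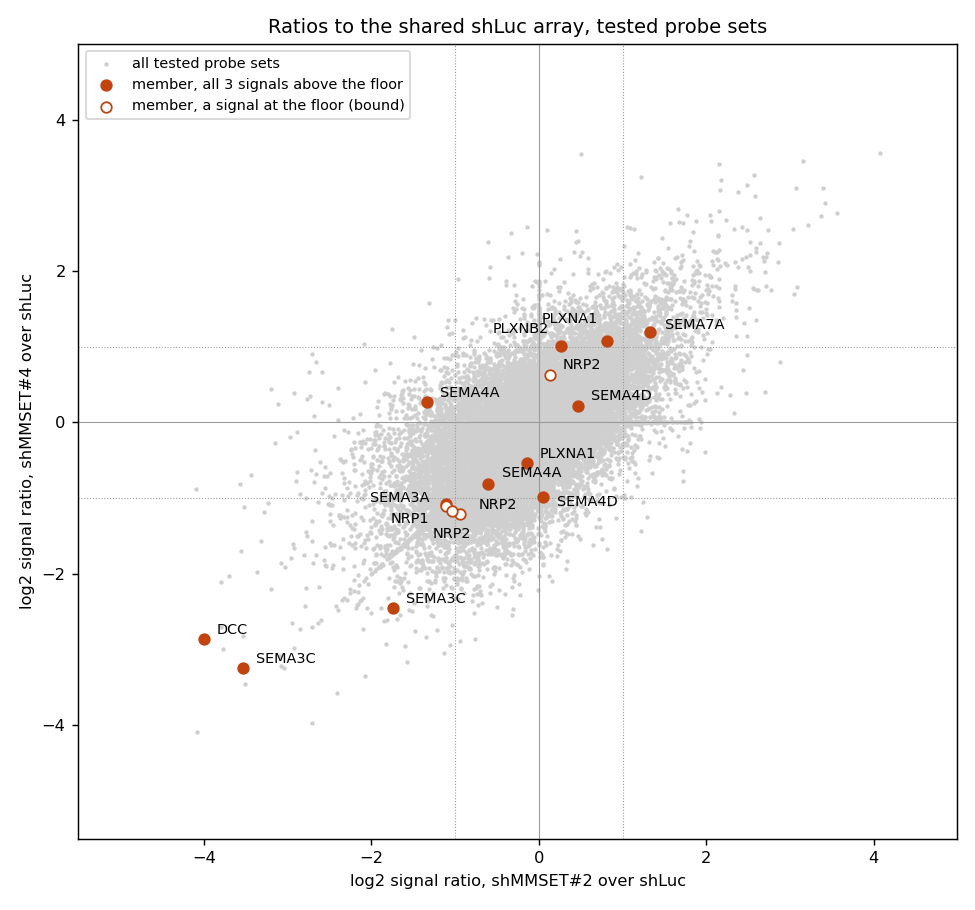
log2 signal ratio of each tested probe set with shMMSET#2 (x axis) and shMMSET#4 (y axis) over the same shLuc array, with all tested probe sets in grey, the 16 of the 10 genes in colour (open where a signal is at the floor) and dotted lines at 2-fold. DCC at -4.00 and -2.86 and SEMA3C at -3.53 and -3.25 lie at the lower left edge of the cloud, SEMA7A lies at the upper right, and SEMA4A 219259_at lies left of 0 on the x axis and above 0 on the y axis. Both axes share the shLuc array, which by itself spreads points along the diagonal.

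With shMMSET#2, 7 of the 16 tested probe sets were at least 2-fold lower than with shLuc, a size called in 10.6% of all 25458 tested probe sets, and 1 was at least 2-fold higher, against 6.00%. With shMMSET#4, 7 were lower (10.8% of all) and 3 were higher (6.02% of all). With both hairpins, 6 were lower (4.80% of all), from SEMA3C, SEMA3A, NRP1, NRP2 and DCC, and 1 was higher (2.62% of all), from SEMA7A. NRP1 210615_at and NRP2 210841_s_at and 228699_at were bright enough to be tested on shLuc alone, which favours a lower ratio and a highest shLuc signal. NRP2 225566_at was bright enough on shMMSET#4 alone. The genes were chosen on this contrast, and the hairpins share their control array, so nothing is read from these counts and shares. The median log2 ratio of the 16 was -0.77 with shMMSET#2 and -0.90 with shMMSET#4, beside -0.05 and -0.06 over all tested probe sets. The shLuc signal was the highest of the 3 arrays on 9 of the 16, the lowest on 5 and between the hairpins on 2. With equal medians the counts for both hairpins became 3 lower, beside 1.73% of all tested probe sets, and 2 higher, beside 6.5%. The 3 that stayed lower were the SEMA3C probe sets and DCC 238914_at.

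**Figure D3:**
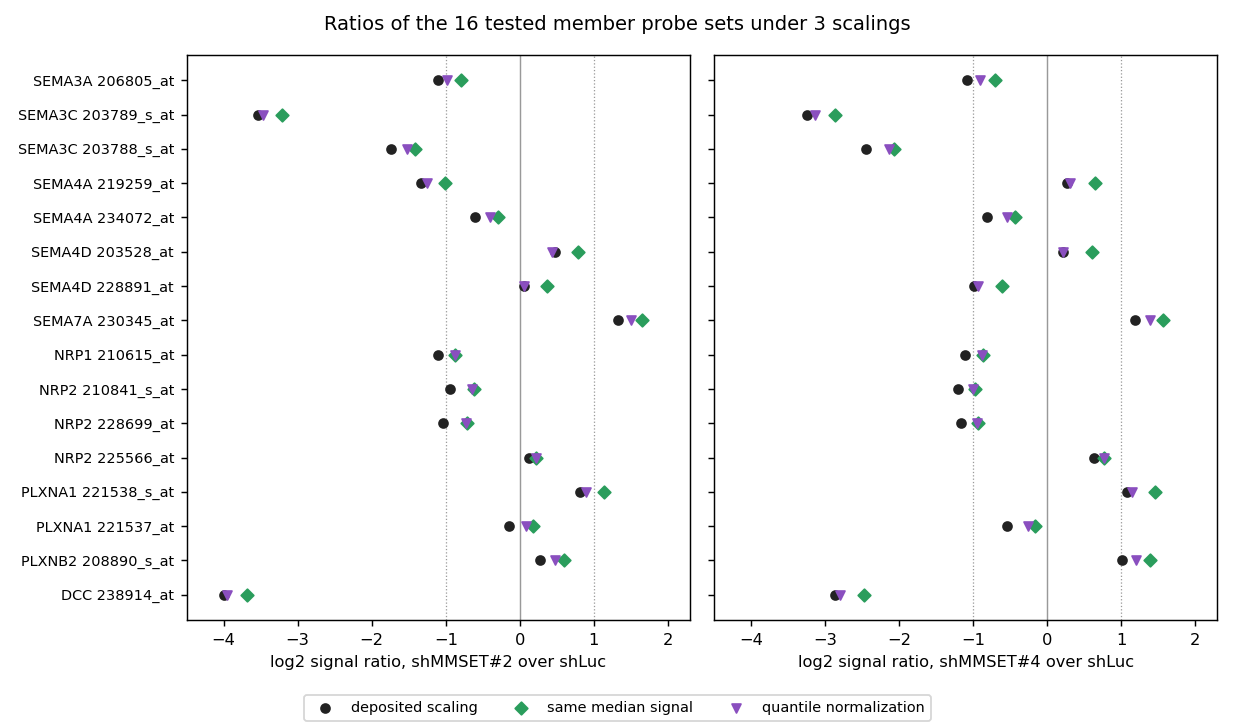
log2 signal ratio of the 16 tested probe sets with shMMSET#2 (left) and shMMSET#4 (right) over shLuc, in the deposited scaling (circles), with every array at the same median signal (diamonds) and after quantile normalization (triangles), with dotted lines at 2-fold. SEMA3C and DCC stay left of the dotted line at -1 in each scaling, SEMA7A stays right of the line at 1, and SEMA3A, NRP1 and NRP2 228699_at move across the line at -1.

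The rest of the pathway was taken from 8 lists that leave out the 10 genes. Of 103 listed genes, 75 were tested on their brightest probe set. Of these, 3 (4.00%) lay 2-fold or more below shLuc with both hairpins, beside 4.35% of all tested genes, and 1 (1.33%) was at least 2-fold higher, beside 2.83%. Both shares are near those of all genes. With equal medians the counts became 1 lower and 9 higher, beside 1.72% and 6.97% of all tested genes. With quantile normalization they became 1 lower and 5 higher, beside 2.51% and 3.81%.

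Of 10 other tested semaphorins, 0 were called with both hairpins, and the brightest, SEMA4B, read 2088 in shLuc cells, 1968 under shMMSET#2 and 1098 under shMMSET#4. Their median log2 ratio was -0.30 with shMMSET#2 and 0.09 with shMMSET#4, and these became 0.02 and 0.47 with equal medians. In that setting 1 of the 10 (10.0%), SEMA3F, was higher with both, beside 6.97% of all tested genes. SEMA3F was also the 1 called with quantile normalization, beside 3.81%. Among 5 other tested plexins, PLXNA3, a partner of neuropilins, was lower with both at 572, 278 and 263 (2.06-fold and 2.18-fold), a call lost with equal medians and with quantile normalization. PLXNC1, the SEMA7A receptor and the brightest plexin, was named after its values were seen: it read 5522, 3510 and 3972, or 1.57-fold and 1.39-fold lower. PLXND1, a receptor of class 3 and class 4 semaphorins, was named likewise: on its brightest probe set it read 293 in shLuc cells, 142 under shMMSET#2 and 663 under shMMSET#4, 2.06-fold lower and 2.26-fold higher, and with shMMSET#4 1 of its dimmer probe sets was at least 2.99-fold lower and the other at least 3.60-fold higher. PLXNB1, the SEMA4D receptor, was under the floor on all 3 arrays.

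In the list of 9 other tested semaphorin receptors and coreceptors, TIMD4 was lower with both at 155, 69.1 and 22.9, or 2.24-fold and at least 3.75-fold. TIMD4 is a phosphatidylserine receptor, and its place among semaphorin receptors is not established here. It is nevertheless 1 of the 3 list genes counted as lower with both. Of 5 tested members of the VEGF family, which bind neuropilins or pair with them, the VEGF receptor gene FLT1 was lower with both. Its only tested probe set read 152, 21.0 and 55.4, at least 3.69-fold and 2.75-fold lower, and was bright enough on shLuc alone. Of the other FLT1 probe sets, 222033_s_at was above the floor with shLuc alone, at 69.9. The rest, among them the one tied to the RefSeq transcript, were under it on all 3 arrays. FLT1 kept its call with equal medians and with quantile normalization, and TIMD4 did not. Of 23 tested genes of intracellular semaphorin signalling, 0 were called with both hairpins, with medians of 0.01 and -0.03, and CFL1, the actin-severing cofilin and the brightest of them, read 24483, 24672 and 20196. With equal medians 5 of these 23 were higher with both, namely CRMP1, DPYSL2, CDK5, RRAS and ARHGEF12. In that setting 6.97% of all tested genes were so called and their median moved to 0.25 and 0.34. With quantile normalization 2 of the 23 (8.70%), CDK5 and RRAS, were higher with both, beside 3.81% of all tested genes.

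On the netrin side, the ligand gene NTN1 was too dim to be tested, at 50.3, 53.3 and 41.7. Of 6 tested netrins and other netrin receptors, 0 were called with both hairpins. NEO1 (neogenin), the DCC paralogue and brightest of the 6, read 632 in shLuc cells, 185 under shMMSET#2 and 806 under shMMSET#4. That is 3.42-fold lower and 1.28-fold higher, and a dimmer NEO1 probe set was 1.35-fold and 1.31-fold lower. Of 10 tested genes of DCC signalling, 0 were called with both, and APPL1, the adaptor that binds the DCC tail and the brightest of them by the mean over the arrays, read 2003, 2030 and 2163. Of 7 tested Slit and Robo pathway genes, SRGAP3 was higher with both at 62.9, 165 and 141 (2.62-fold and 2.24-fold), also with equal medians and with quantile normalization.

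**Figure D4:**
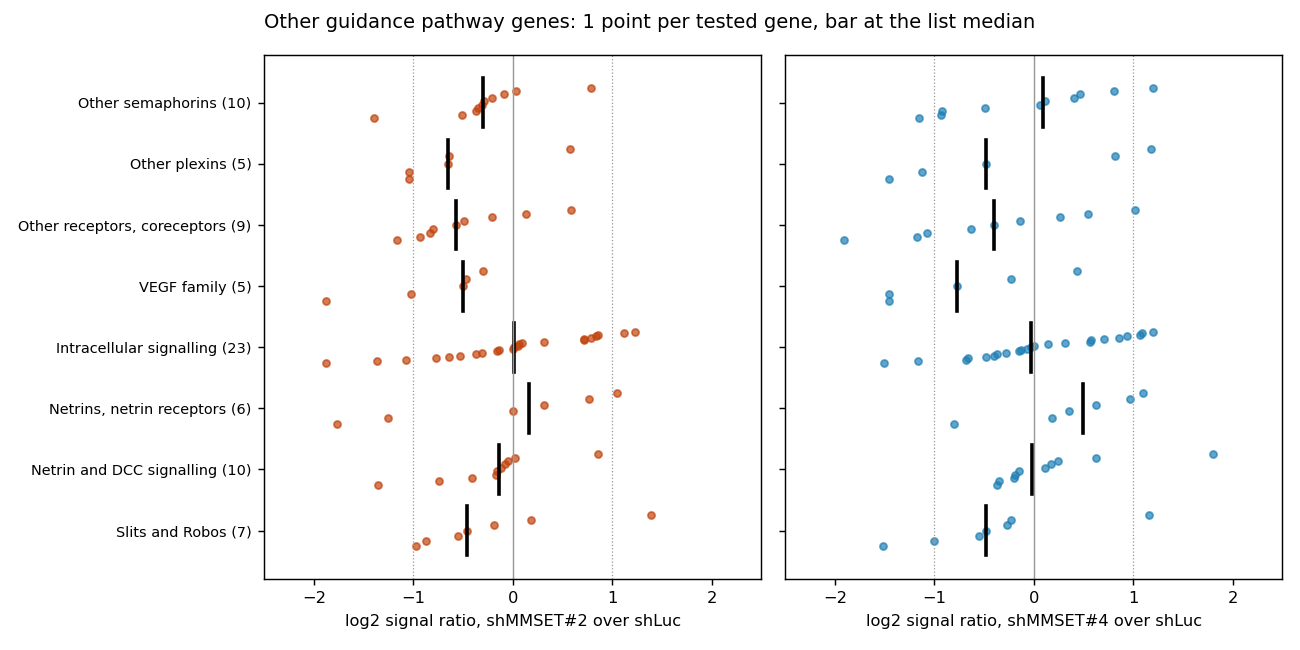
log2 signal ratio over shLuc with shMMSET#2 (left) and shMMSET#4 (right) for the 75 tested genes of 8 guidance pathway lists, 1 point per gene (at 0 where both signals are at the floor), with a bar at each list's median, the number of tested genes in brackets and dotted lines at 2-fold. The medians span -0.65 to 0.16 (left) and -0.77 to 0.49 (right), all between the dotted lines.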

How the data were processed

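The authors deposited 1 linear intensity per probe set and array, made by MAS5 per the submitters' processing notes. Which version and settings they used is not given in the sources used here. A different array of the HG-U133 family is named in the series' text, but the 54675 identifiers are those of HG-U133 Plus 2.0. Leaving out 62 control probe sets, 41091 had 1 symbol after updating by Entrez identifier to RefSeq (GRCh38.p14).

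Signals under the 40th percentile of all arrays together (41.2) were raised to it and log2 ratios to shLuc were taken per probe set, without rescaling. Tested probe sets exceeded their array's median on at least 1 array. For pathway lists, a gene stood by its brightest probe set, by the mean over the arrays. Where 1 signal of a ratio was raised, the fold is written "at least". A call is 2-fold. With 1 array a group, their number limits the precision.

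The 10 genes, the lists and the tests were chosen with earlier results of these data known. Named were all members, list genes past 2-fold with both hairpins, otherwise each list's brightest gene, and NSD2. Apart from the cell type markers, other named genes fall outside this rule, and only some of them are marked in the text. Among those not marked are PLXNB1, NTN1, HGF and CACNA2D1. Listed genes without a probe set of 1 symbol were not analysed here. Steps were tested on simulated data with changes well past 2-fold in bright probe sets. That does not cover calls near 2-fold or near the floor. Alternatives covered scaling, floor, filter, probe set type, threshold and averaging. Software was matplotlib 3.10.9, pandas 2.3.3, numpy 2.4.6 and scipy 1.17.1 under Python 3.11.15.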

Additional observations from a re-analysis of the deposited data

How the results depend on the processing

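No paired analysis was possible because each group had 1 array, and leaving out an array would leave no comparison. The counts of the 16 probe sets moved by over 1.5 times in these settings; the cause was not tested except where a setting tests fewer probe sets or changes the threshold itself. With shMMSET#2 the 7 lower became 4 with equal medians (5.17% of all tested probe sets), quantile normalization (7.18%) or a filter at the 75th percentile (9 tested, 6.74%) and 3 at 3-fold (2.46%), and the 1 higher became 2 with equal medians, no floor or 1.5-fold (12.2%, 8.17% and 16.4%) and 0 at 3-fold (1.32%). With shMMSET#4 the 7 lower became 3 with equal medians, quantile normalization, the 75th percentile filter or 3-fold, and 4 when filtered by mean signal, without _x_at and _s_at probe sets or with the floor raised to the 60th percentile, and the 3 higher became 1 without those probe sets (5.78%) and 0 at 3-fold (1.46%). With both hairpins the 6 lower became 3 with equal medians, quantile normalization, the 75th percentile filter or 3-fold, and the 1 higher became 2 with equal medians, no floor or 1.5-fold and 0 at 3-fold. The share of all tested probe sets lower with both hairpins also shrank, from 4.80% to 1.73%, 2.55%, 2.07% and 0.738% in those settings, while the share higher with both went from 2.62% to 6.5% with equal medians, 4.5% with no floor, 8.17% at 1.5-fold and 0.573% at 3-fold. With shMMSET#4 the share lower went from 10.8% to 4.53%, 6.66%, 5.65% and 2.3% in the settings that gave 3, and to 9.45%, 12.7% and 4.51% in those that gave 4. For the pathway lists, in settings added after the data were seen, the 3 lower became 1 with equal medians and with quantile normalization, and the 1 higher became 9, 5 and, with no floor, 2.

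Over these scalings and floors the log2 ratio of SEMA3C 203789_s_at spanned -3.53 to -3.14 for shMMSET#2 and -3.25 to -2.87 for shMMSET#4, and that of DCC 238914_at spanned -4.00 to -3.68 and -2.86 to -2.48. The dimmer SEMA3C 203788_s_at spanned -1.74 to -1.06 and -2.45 to -1.06. None of the called ratios of the 16 changed sign in the scaling and floor settings run. When each gene stood by the average of its probe sets, SEMA3C and DCC stayed past 2-fold with both hairpins, while SEMA3A (-0.65 and -0.64), NRP1 (-0.28 and -0.28) and SEMA7A (0.93 and 0.60) did not, and single calls ended for SEMA4A with shMMSET#2 (-0.97) and, with shMMSET#4, for NRP2 (-0.26), PLXNA1 (0.18) and PLXNB2 (0.50). That averaging also turned the uncalled ratios with shMMSET#4 of SEMA4A, from 0.27 to -0.27, and SEMA4D, from 0.22 to -0.39. Signals near the floor limit what NRP1, NRP2 and the dimmer SEMA3A and DCC probe sets can show.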

Other observations

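The values of VEGFA and MET were chosen after they were seen. VEGFA, the main angiogenic factor of myeloma cells, was lower with shMMSET#2 on all 4 probe sets, with log2 ratios from -1.04 to -0.94, while with shMMSET#4 they ran from -0.69 to 0.89. On its brightest probe set VEGFA read 5599 in shLuc cells, 2752 under shMMSET#2 and 4783 under shMMSET#4, and there the hairpin arrays differed by 1.74-fold, inside the 1.87-fold that held 95% of like probe sets. On its dimmest, 211527_x_at, they differed by 3.73-fold, past the 2.90-fold of like probe sets, and on the rest they stayed inside that range. MET, the HGF receptor and a partner of plexin B1, was dim and read 92.4, 139 and 188 on its brighter probe set, 1.5-fold and 2.03-fold higher, whereas its other tested probe set was higher with shMMSET#2 (1.44-fold) but lower with shMMSET#4 (at least 1.84-fold).

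A plexin outside the 10 genes, PLXNA4, showed how much the choice of probe set matters. It was named after its values were seen. Its brightest probe set was 1.5-fold and 1.76-fold higher with shMMSET#2 and shMMSET#4, under the threshold, while the next one (232317_at) read 44.1 in shLuc cells, 254 under shMMSET#2 and 204 under shMMSET#4, or 5.75-fold and 4.62-fold higher. The 44.1 lies just above the floor of 41.2. Another tested probe set, 1562240_at, read 48.8, 71.3 and 34.6, which is 1.46-fold higher and at least 1.18-fold lower. The last was under the floor on all 3 arrays.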
